A study of Mus musculus with 6 samples.

Results

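The genes described here are 5 receptors of the Nkrp1 family (Klrb1, Klrb1a, Klrb1b, Klrb1c and Klrb1f) and 3 genes of the Clec2 family (Clec2d, Clec2i and Clec2l). The rule takes them by symbol and uses no measured value, and 8 of 8 were found among the 23841 genes of the count table. The list itself was chosen with earlier results of these data known. RNA sequencing was done on innate lymphocytes sorted from kidneys of naive C57BL/6 mice labelled WT. Type 1 innate lymphoid cells (ILC1), which are tissue-resident lymphocytes, were gated as CD49a+CD49b low/int NK1.1+NKp46+CD3-. Conventional natural killer cells (cNK), which are cytotoxic and circulate, were gated as CD49b hi NK1.1+NKp46+CD3-. Each population had 3 libraries, called pools in the labels, and the sources used here give neither the mice per pool nor their age. The libraries compare both populations in kidneys without disease.

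Nkrp1 receptors are lectin-like proteins on natural killer cells and related lymphocytes, and several of them bind Clec2 proteins (also named Clr), whose genes lie between the receptor genes in the natural killer gene complex. Activating members pass their signal through the adaptor chain Fc receptor gamma, whereas inhibitory members carry a tyrosine motif in the cytoplasmic tail that recruits the phosphatase SHP-1. The best known pair is the inhibitory receptor NKR-P1B with Clr-b, a Clec2 protein on many healthy blood cells that is often lost from stressed or transformed cells. NKR-P1F and NKR-P1G bind Clr-g, and NK1.1, the marker of natural killer cells in C57BL/6 mice, is the product of Klrb1c.

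The coding sequences of the cytoplasmic tails show which receptor carries which motif. The stretches below are read 5′ to 3′ from the principal transcripts of GENCODE M21 (GRCm38). They end at the codons of the cysteine-containing stretch that serves in some receptors to bind the kinase Lck, or in Klrb1 at the matching codons. Capitals mark the codons of the tyrosine inhibitory pattern (isoleucine, leucine or valine, then any residue, tyrosine, any pair of residues, and leucine or valine).
Klrb1a: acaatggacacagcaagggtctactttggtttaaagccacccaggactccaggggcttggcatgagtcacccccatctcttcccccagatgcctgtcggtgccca
Klrb1c: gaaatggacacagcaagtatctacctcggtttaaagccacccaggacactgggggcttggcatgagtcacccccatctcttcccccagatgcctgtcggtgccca
Klrb1f: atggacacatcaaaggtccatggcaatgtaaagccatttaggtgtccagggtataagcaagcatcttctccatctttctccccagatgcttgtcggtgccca
Klrb1b: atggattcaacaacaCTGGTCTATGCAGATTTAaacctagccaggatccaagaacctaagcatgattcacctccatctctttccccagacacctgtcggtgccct
Klrb1: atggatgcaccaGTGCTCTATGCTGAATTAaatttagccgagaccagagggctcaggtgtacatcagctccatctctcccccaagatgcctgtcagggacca
Within these stretches, the only part searched, the pattern was found in Klrb1b (NKR-P1B) and Klrb1 (NKR-P1G). It was found in neither Klrb1a (NKR-P1A), Klrb1c (NK1.1) nor Klrb1f (NKR-P1F). Klrb1c missed it only at the first place, where it has serine, so a pattern that also allows serine there would include Klrb1c. The cysteine-containing stretch (cysteine, any residue, cysteine, proline) ended the stretch of Klrb1a, Klrb1b, Klrb1c and Klrb1f, and was not found in that of Klrb1. Over the whole coding sequence, Klrb1a and Klrb1c were 92.0% identical, Klrb1b and Klrb1c 86.0%, and Klrb1 and Klrb1f 82.0%.

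The ILC1 libraries showed more RNA of the inhibitory receptor gene Klrb1b and of the Clec2 genes Clec2i and Clec2l than the cNK libraries did. Of the 8 genes, 3 were higher in ILC1 and 0 higher in cNK by edgeR's quasi-likelihood test at a Benjamini-Hochberg adjusted p of 0.05. Among all 16144 genes tested, 4.07% were higher in ILC1 and 1.69% higher in cNK by the same rule. All 8 genes passed the filter on low counts, and 5 had an unadjusted p under 0.05, beside 18.0% of all tested genes. DESeq2 called 4 of the 8 higher in ILC1, beside 5.57% of all 19647 genes it tested, and 1 higher in cNK, beside 3.26%. The ILC1 values lay wholly above the cNK values for 4 of the 8 genes, beside 15.0% of all tested genes, and wholly below them for 1, beside 9.06%. The median log2 fold change of ILC1 over cNK was 0.50 over the 8 genes and 0.01 over all tested genes. Fold changes are given with the standard error (SE) and the 95% interval. Levels are CPM, counts brought to a common library size with edgeR's TMM factors. In bulk RNA a lower level from fewer expressing cells cannot be told apart from less RNA per cell.

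**Figure D1:**
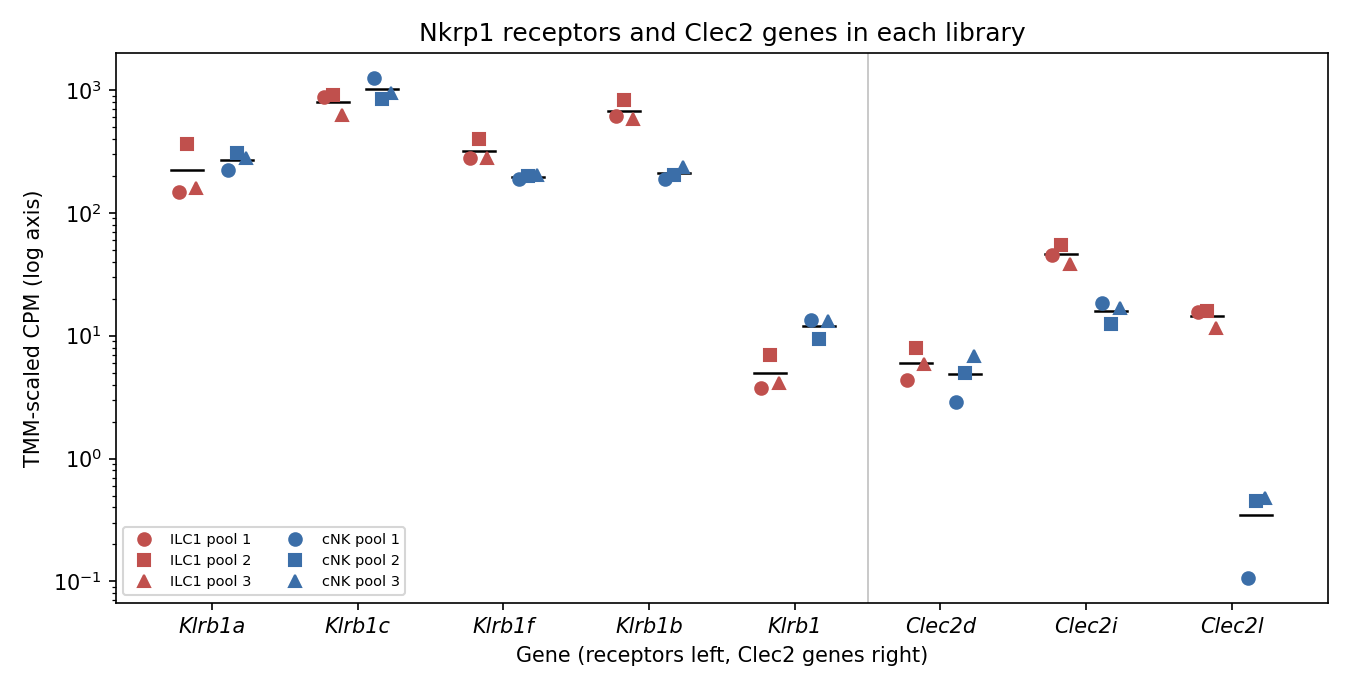
TMM-scaled CPM on a log axis of the 5 Nkrp1 receptor genes and 3 Clec2 genes. Each point is 1 of 3 ILC1 or 3 cNK libraries and the bars are the means; the points of the populations are apart for Klrb1f, Klrb1b, Klrb1, Clec2i and Clec2l and overlap for Klrb1a, Klrb1c and Clec2d.

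Facts of the libraries that touch these results were as follows. The 6 libraries held 22633440 to 28327265 counts, so that 1 count was worth 0.0353 to 0.0442 CPM. The gate genes went with the labels: Itga1 (CD49a) stood at 137 ± 41.7 CPM (mean ± SD, n = 3) in ILC1 and 11.2 ± 3.56 in cNK, and Itga2 (CD49b) at 16.6 ± 7.30 and 107 ± 45.8. A list of 16 macrophage, monocyte and dendritic cell markers, all in the table, took 0.422% to 1.01% of the counts in ILC1 and 0.0800% to 0.110% in cNK, and 6 of the 16 were higher in ILC1 by edgeR. Kidney epithelial markers (10 of 10 in the table) took 0.0293% to 0.292% in ILC1 and 0.0971% to 0.311% in cNK. T cell markers (7 of 7 in the table) took 0.00705% to 0.0112% in ILC1 and 0.00307% to 0.00428% in cNK, and 1 of them, Cd3g, was higher in ILC1 (59.4 ± 13.2 against 10.6 ± 2.57 CPM, edgeR adjusted p 0.00384). B cell markers (5 of 5) took 0.000748% to 0.00105% and 0.000300% to 0.000605%, and endothelial markers (5 of 5) took 0.00604% to 0.00954% and 0.00498% to 0.00523%, with 0 called by edgeR in either list. All of these shares except the kidney epithelial one were wholly higher in ILC1, but the genes inside a list differed in direction. In the T cell list Cd3d (log2 fold change -0.71) and Trac (-0.47) were negative and the other genes positive. Among the endothelial markers Pecam1 (0.69) and Cdh5 (0.58) were positive, and Kdr (-0.87), Tek (-0.14) and Emcn (-0.19) negative. The shares of neutrophil and of erythroid markers overlapped between the populations. Mitochondrial genes took 1.38% to 6.53% in ILC1 and 3.15% to 12.7% in cNK. The part of these other transcripts in the differences was not tested, apart from the fits with a marker share as a covariate named beside the results. Because the macrophage, monocyte and dendritic share did not overlap between the populations, a fit with it cannot tell the share from the population.

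Klrb1b encodes the inhibitory receptor for Clr-b. Its level was 616, 821 and 579.8 CPM in ILC1 pools 1, 2 and 3, and 189, 204 and 237 CPM in cNK pools 1, 2 and 3. Every ILC1 library was thus above every cNK library. The mean was 672 ± 130.1 CPM in ILC1 and 210.1 ± 24.3 CPM in cNK (SD, n = 3), a ratio of 3.20. The log2 fold change was 1.68 ± 0.21 (SE; 95% interval 1.17 to 2.18), with an edgeR adjusted p of 0.00605. Under 16 alternative settings it ranged from 1.51 to 2.05, and the adjusted p was at most 0.0434. Some of these counts are uncertain, because Klrb1b overlaps the gene model Gm44511 on the same strand. Of its 2422 transcript windows of 100 bases, 540 (22.3%) also occur in a transcript of Gm44511, which itself spans Klrb1c and Klrb1b and for which no count was used here. No window of Klrb1b occurs in another receptor gene of the family.

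Klrb1, the gene of the other receptor with the inhibitory pattern, had low levels in all libraries. It stood at 3.73, 6.97 and 4.10 CPM in ILC1 and 13.4, 9.35 and 13.1 CPM in cNK, so that each cNK library was above each ILC1 library. In counts these values rest on 93, 204 and 114 reads in ILC1 and 373, 206 and 303 in cNK. The means were 4.93 ± 1.77 and 12.0 ± 2.26 CPM (SD, n = 3), and the log2 fold change was -1.27 ± 0.32 (95% interval -2.03 to -0.52). The edgeR adjusted p was 0.0735 and missed the threshold, whereas that of DESeq2 was 0.00471. Klrb1 also passed edgeR's threshold without ILC1 pool 2 (log2 fold change -1.61, adjusted p 0.0492) and with the kidney epithelial share as a covariate (-1.46, adjusted p 0.0431). Over the 16 alternatives the adjusted p ran from 0.00471 to 0.572.

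Klrb1f encodes the activating receptor NKR-P1F, which binds Clr-g. It stood at 277, 399 and 280.5 CPM in ILC1 and at 187, 199.8 and 202 CPM in cNK. The cNK libraries lay close together, and all were below the lowest ILC1 library. Means were 319 ± 69.5 and 196 ± 8.17 CPM (SD, n = 3), with a log2 fold change of 0.70 ± 0.20 (95% interval 0.22 to 1.18). Its edgeR adjusted p was 0.118, and over the alternatives it ran from 0.0485 with DESeq2 to 0.374, so that 1 of 16 alternatives passed the threshold.

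Klrb1c encodes NK1.1, which was part of both sort gates, so its RNA was measured in cells chosen for the protein. It was at 880.3, 908 and 622 CPM in ILC1 and at 1251, 849.6 and 952 CPM in cNK. The populations overlapped, since cNK pool 2 was below ILC1 pools 1 and 2. The log2 fold change was -0.34 ± 0.24 (95% interval -0.91 to 0.23) and the edgeR adjusted p was 0.510. Klrb1a, whose product NKR-P1A has an activating type of tail, was at 146, 361 and 158 CPM in ILC1 and at 221, 309 and 277 CPM in cNK. ILC1 pool 2 was the highest library of all for this gene and the other ILC1 pools were the lowest. Its log2 fold change was -0.28 ± 0.38 (95% interval -1.17 to 0.61) with an edgeR adjusted p of 0.722. Both intervals include 0 and do not show that the levels were alike. Both signs turned with the macrophage, monocyte and dendritic share as a covariate, to 0.51 for Klrb1a and 0.19 for Klrb1c, with neither past the threshold. That share did not overlap between the populations, and the SE was 0.58 for Klrb1a and 0.41 for Klrb1c in this fit. Of the 100-base transcript windows of Klrb1c, 10.8% are shared, 321 with Gm44511 and 9 with Klrb1a.

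**Figure D2:**
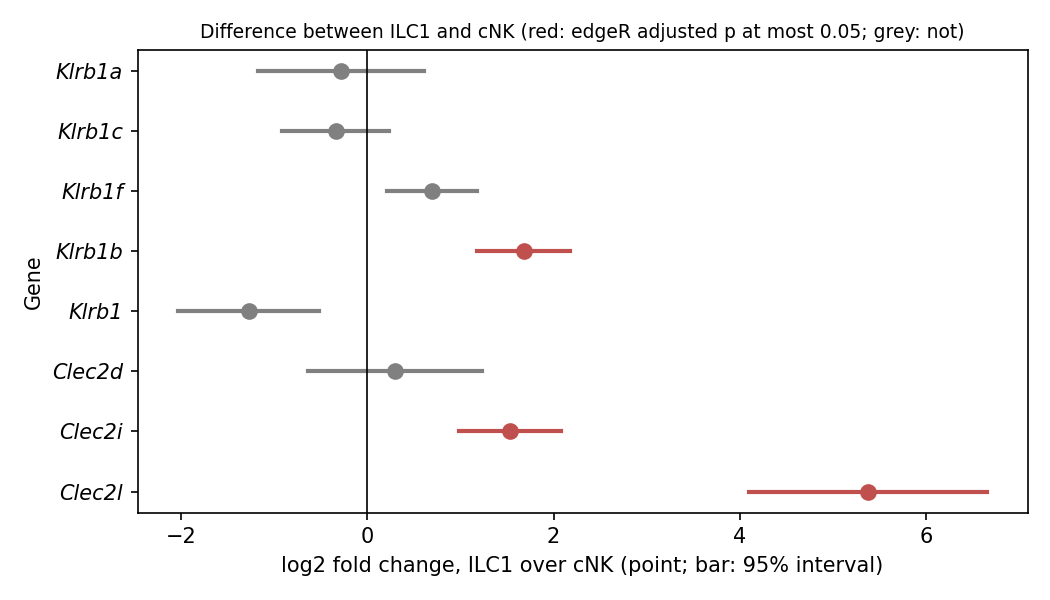
Log2 fold change of ILC1 over cNK for each of the 8 genes, with the 95% interval as a bar and the edgeR call as the colour. Klrb1b (1.68), Clec2i (1.53) and Clec2l (5.38) are coloured as higher in ILC1, and the intervals of Klrb1f and Klrb1 leave out 0 without a call.

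The share of each gene in the summed counts of the 5 receptors describes the make-up of the family in a library. Klrb1c held 45.8%, 36.4% and 37.8% of the receptor counts in ILC1 and 67.2%, 54.1% and 56.6% in cNK. Klrb1b held 32.0%, 32.9% and 35.3% in ILC1 and 10.2%, 13.0% and 14.1% in cNK. For both genes the populations were apart, Klrb1c with the larger share in cNK and Klrb1b with the larger share in ILC1. Exact binomial 95% intervals of these shares were at most 0.526 percentage points to either side, for counting error only. Klrb1b with Klrb1, the receptors with the inhibitory pattern, together held 33.6% ± 1.69 in ILC1 and 13.1% ± 2.03 in cNK (SD, n = 3), nearly all of it from Klrb1b, as Klrb1 alone held 0.241% ± 0.0431 and 0.698% ± 0.0949. Klrb1f took 15.8% ± 1.34 and 11.6% ± 1.39. Klrb1a took 7.61% to 14.5% in ILC1 and 11.9% to 19.6% in cNK. The sum of the 5 receptors was 1923, 2496 and 1645 CPM in ILC1 and 1862, 1572 and 1681 CPM in cNK, and these ranges overlapped. Shares of 1 sum depend on each other, so they were not tested.

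**Figure D3:**
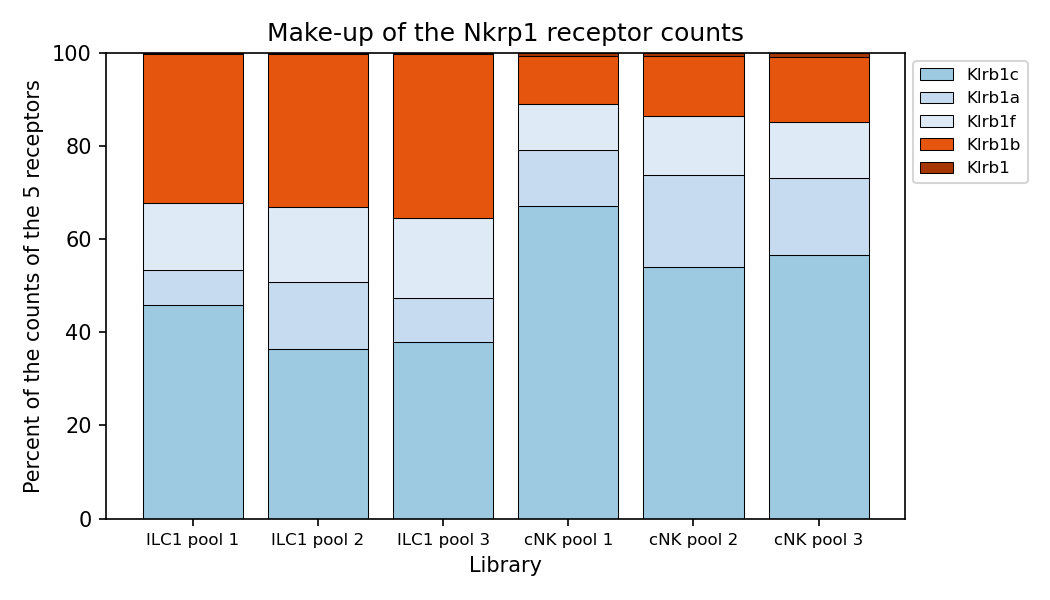
Percent of the summed counts of the 5 Nkrp1 receptor genes taken by each gene, stacked to 100% in each of the 6 libraries. Klrb1b takes 32.0% to 35.3% in the ILC1 libraries and 10.2% to 14.1% in the cNK libraries.

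Ratios within a library do not depend on its scaling. Klrb1b had 0.700, 0.904 and 0.931 counts for each count of Klrb1c in ILC1 and 0.151, 0.240 and 0.249 in cNK. Against Klrb1f, the ratio of Klrb1b was 2.22, 2.06 and 2.07 in ILC1 and 1.01, 1.02 and 1.17 in cNK, with little spread inside either population. Klrb1a over Klrb1c gave 0.166, 0.398 and 0.253 in ILC1 and 0.177, 0.363 and 0.291 in cNK, ranges that overlapped.

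Levels per kilobase of exon give a rough comparison between genes. The length is that of all annotated exons of a gene, whichever transcripts were in use. Transcript windows shared with other genes (22.3% for Klrb1b and 10.8% for Klrb1c) also make the counts uncertain. By this measure Klrb1b and Klrb1c led in ILC1 at 302 ± 58.4 and 271 ± 53.1 CPM per kb (SD, n = 3). Their order was not the same in every ILC1 library, since Klrb1c was above Klrb1b in pool 1 (297 against 276 CPM per kb) and below it in pools 2 and 3. Klrb1f (157 ± 34.3) and Klrb1a (139 ± 75.8) followed within their spread of each other, and then at a distance Clec2i (14.8 ± 2.70), Clec2l (10.04 ± 1.69), Clec2d (4.98 ± 1.47) and Klrb1 (3.51 ± 1.26 CPM per kb). Clec2d and Klrb1 did not differ beyond their spread. In cNK the order in CPM per kb began with Klrb1c (344 ± 70.4) and Klrb1a (169 ± 27.7), followed by Klrb1f (92.4 to 99.9) and Klrb1b (85.0 to 106), whose ranges overlapped. Klrb1 (8.51 ± 1.61), Clec2i (5.12 ± 0.986), Clec2d (4.05 ± 1.63) and Clec2l (0.242 ± 0.145 CPM per kb) came last in cNK. Clec2i and Clec2d were within their spread there, with Clec2d above Clec2i in pools 2 and 3.

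Clec2i encodes Clr-g, a ligand of NKR-P1F and NKR-P1G. It was at 45.0, 54.8 and 38.1 CPM in ILC1 and at 18.5, 12.5 and 16.8 CPM in cNK. No library of either population overlapped the other range. The means were 46.0 ± 8.39 and 15.9 ± 3.07 CPM (SD, n = 3), and the log2 fold change was 1.53 ± 0.23 (95% interval 0.98 to 2.07) with an edgeR adjusted p of 0.0115. The call was lost without cNK pool 3 (log2 fold change 1.56, adjusted p 0.0757) and with the macrophage, monocyte and dendritic share as a covariate (1.97, adjusted p 0.0578). That marker share was 0.533%, 0.422% and 1.01% in ILC1 pools 1, 2 and 3, and 0.0923%, 0.110% and 0.0800% in the cNK pools. It did not overlap between the populations, and the SE rose from 0.23 to 0.41 in the covariate fit. That fit therefore cannot tell the share from the population. On the opposite strand Clec2i overlaps BC035044, which had 630, 930 and 748 counts in ILC1 and 865, 735 and 722 in cNK, and without a stated use of strand the reads of the overlap cannot be told apart.

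Clec2l encodes a Clec2 relative described mainly in brain, whose binding partner is not well known. It had 387, 466 and 321 counts in ILC1 and 3, 10 and 11 counts in cNK, or 15.5, 15.9 and 11.6 CPM against 0.107, 0.454 and 0.477 CPM. The gene was near the level of a few reads in all cNK libraries and well above it in all ILC1 libraries. Mean levels were 14.3 ± 2.41 and 0.346 ± 0.207 CPM (SD, n = 3), a ratio of 41.4 that rests on the few cNK counts. The log2 fold change was 5.38 ± 0.54 (95% interval 4.10 to 6.65), the edgeR adjusted p was 0.00272, and the fold change stayed past the threshold under all 16 alternatives, at 4.87 to 5.98. Of the ILC1 pools, pool 3 had the lowest Clec2l level, as for Klrb1b, Klrb1c and Clec2i. With the macrophage, monocyte and dendritic share as a covariate the log2 fold change was 5.83 (edgeR adjusted p 0.0243), under the same limit as for Clec2i. Clec2l lies on chromosome 6 (38663069 to 38680864, plus strand, GRCm38), 89.9 Mb from the other 7 genes. Its coding sequence is 55.1% identical to that of Clec2d and 54.4% to that of Clec2i. These values lie within the range for Clec2l and the 5 receptor genes, 49.8% (Klrb1f) to 56.9% (Klrb1a). Clec2d and Clec2i are 85.7% identical to each other.

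Clec2d encodes Clr-b, the ligand of the receptor that Klrb1b encodes. Its level was 4.34, 7.89 and 5.90 CPM in ILC1 and 2.90, 4.99 and 6.85 CPM in cNK, which overlapped. The log2 fold change was 0.30 ± 0.39 (95% interval -0.63 to 1.23) with an edgeR adjusted p of 0.717, and it turned to -0.035 without cNK pool 1. Clec2i had 10.4, 6.95 and 6.46 counts for each Clec2d count in ILC1 and 6.37, 2.51 and 2.45 in cNK. Pool 1 gave the highest ratio in either population, and the lowest ILC1 ratio was only just above the highest cNK ratio.

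Of 10 further genes of both families, 5 were in the count table and 2 passed the filter, with 0 called by edgeR, 0 by DESeq2 and 0 at an edgeR unadjusted p under 0.05. Cd69, a Clec2 relative in sequence and an early activation marker, was at 207 ± 38.8 CPM in ILC1 and 154 ± 28.5 in cNK (log2 fold change 0.42 ± 0.22, edgeR adjusted p 0.390). Clec2h, which encodes the NKR-P1G ligand Clr-f and is known from gut and kidney epithelium, had 4, 10 and 14 counts in ILC1 and 6, 33 and 15 in cNK (log2 fold change -1.20 ± 0.78, edgeR adjusted p 0.473). The kidney epithelial marker share was 0.0895%, 0.0293% and 0.292% in the same ILC1 libraries and 0.0971%, 0.311% and 0.274% in the cNK libraries. The pseudogene Klrb1-ps1 had 2 to 6 counts per library, Clec2f had 0 to 5, and Clec2g had 1, 4 and 1 in ILC1 and 0 in each cNK library, a result that allows up to 3 counts per library. Clec2e, Clec2j, Clec2m, Klrb1d and Klrb1e were not analysed here.

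Of 16 genes known to carry Nkrp1 or related signals, all were tested. By edgeR 2 passed as higher in cNK (1.69% of all genes), 0 as higher in ILC1 (4.07%), and 8 had an unadjusted p under 0.05 (18.0%). DESeq2 further called Plcg1, a phospholipase gene, as higher in ILC1 (adjusted p 0.00107) and Tyrobp, the adaptor DAP12, as higher in cNK (adjusted p 0.0124). The median log2 fold change of the list was -0.10, beside 0.01 over all tested genes. Fcer1g, the Fc receptor gamma chain used by the activating Nkrp1 receptors, stood at 1496 ± 393 CPM in ILC1 and 2228 ± 229 in cNK, with a log2 fold change of -0.58 ± 0.24 and an edgeR adjusted p of 0.273. Lck, the kinase bound by the cysteine-containing tail, stood at 539 ± 121 and 736 ± 181 CPM (-0.45 ± 0.26, edgeR adjusted p 0.433). Ptpn6, which encodes SHP-1, stood at 266 ± 51.1 and 165 ± 36.0 CPM (0.69 ± 0.24, edgeR adjusted p 0.180), with the ILC1 libraries above the cNK libraries. The genes that passed were Cd247, the zeta chain, at 42.1 ± 7.40 CPM in ILC1 and 229.9 ± 27.4 in cNK (-2.45 ± 0.21, edgeR adjusted p 0.00147), and the kinase gene Fyn, at 224 ± 52.6 and 643 ± 165 CPM (-1.52 ± 0.27, edgeR adjusted p 0.0218). Among 11 other lectin-like receptor genes, 10 were tested, 1 was higher in ILC1 (Klri1, log2 fold change 1.45 ± 0.21, edgeR adjusted p 0.00913) and 2 had the opposite call (Klrg1 and Klri2). DESeq2 further called Klrc1 as higher in ILC1 (adjusted p 0.00455) and Klrc2 and Klre1 as higher in cNK (adjusted p 0.0295 and 0.00593). The median log2 fold change over these 10 genes was -0.55.

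The 7 clustered genes span 577 kb of chromosome 6, from 128609227 to 129186534 (GRCm38). In order they are Klrb1a (128609227 to 128623533, minus strand), Klrb1 (128705836 to 128723059, minus), Klrb1c (128778485 to 128789215, minus), Klrb1b (128813706 to 128826331, minus), Clec2i (128887588 to 128898167, plus), Klrb1f (129045901 to 129057464, plus) and Clec2d (129180615 to 129186534, plus). The called genes Klrb1b and Clec2i are next to each other in this order, with Klrb1c and Klrb1f as the outer neighbours. Between the ends of the cluster GENCODE M21 lists 29 other genes, of which 13 were in the count table and 8 were tested. Of these 8, 0 were called higher in ILC1, beside 4.07% of all tested genes, and 1 was called higher in cNK, beside 1.69%. That gene is Gm44066, a lincRNA of unknown role named here after its values were seen, which lies between Klrb1b and Clec2i (128842558 to 128843171, minus strand). It averaged 6.13 CPM in ILC1 and 13.8 in cNK (log2 fold change -1.17 ± 0.23, edgeR adjusted p 0.0314), against the higher ILC1 levels of Klrb1b and Clec2i. BC035044, the next tested gene on its Clec2i side, had overlapping populations and a log2 fold change of -0.19 ± 0.17 (edgeR adjusted p 0.601).

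**Figure D4:**
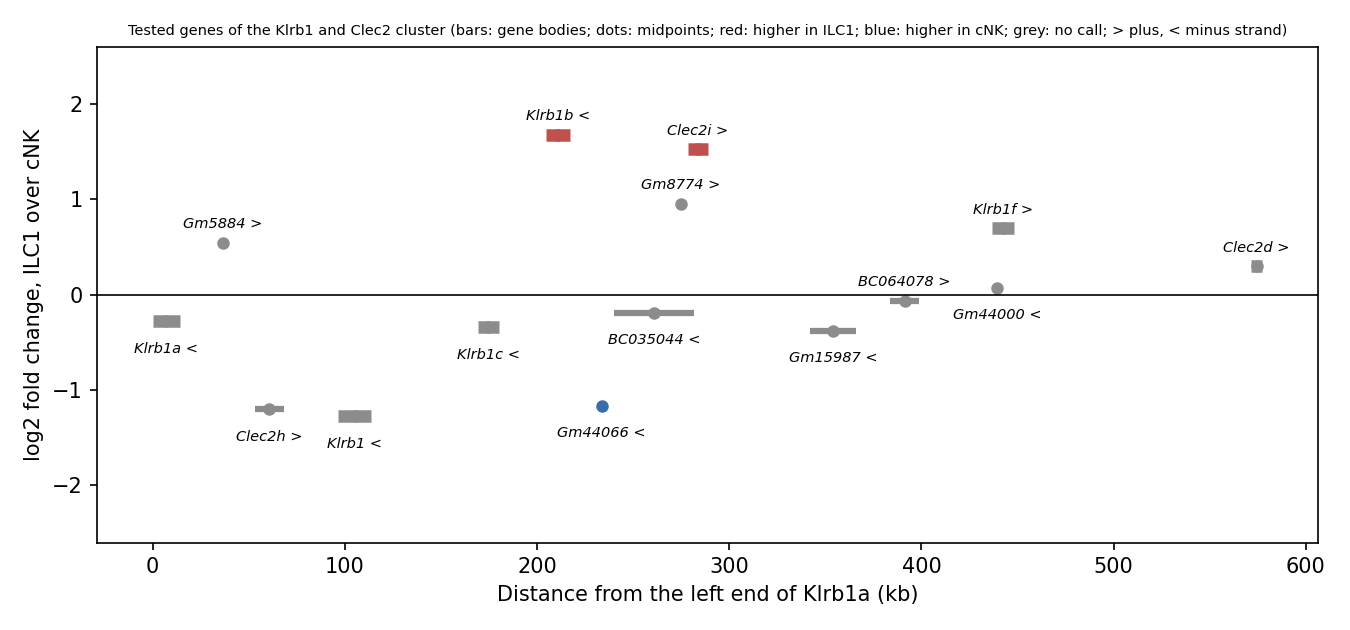
Tested genes of the chromosome 6 cluster, placed by their distance in kb from the left end of Klrb1a and by their log2 fold change of ILC1 over cNK. Klrb1b (1.68) and Clec2i (1.53) are higher in ILC1, Gm44066 (-1.17) between them is higher in cNK, and the other genes have no call.

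The promoter windows of Klrb1b and Klrb1f are shown because these were the receptor genes whose ILC1 values lay above the cNK values. Each runs from 250 bases before to 50 bases after the start of the gene, 5′ to 3′ on the gene's strand (RefSeq, GRCm38.p6), at chr6:128826259-128826558 on the minus strand for Klrb1b and chr6:129045651-129045950 on the plus strand for Klrb1f. Capitals mark the longest run of bases that both windows share.
Klrb1b: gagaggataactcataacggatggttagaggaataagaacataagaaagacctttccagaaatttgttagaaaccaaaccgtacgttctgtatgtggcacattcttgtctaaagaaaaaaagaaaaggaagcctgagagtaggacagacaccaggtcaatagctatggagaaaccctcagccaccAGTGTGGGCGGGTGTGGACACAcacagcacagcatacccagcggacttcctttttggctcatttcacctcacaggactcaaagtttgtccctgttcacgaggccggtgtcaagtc
Klrb1f: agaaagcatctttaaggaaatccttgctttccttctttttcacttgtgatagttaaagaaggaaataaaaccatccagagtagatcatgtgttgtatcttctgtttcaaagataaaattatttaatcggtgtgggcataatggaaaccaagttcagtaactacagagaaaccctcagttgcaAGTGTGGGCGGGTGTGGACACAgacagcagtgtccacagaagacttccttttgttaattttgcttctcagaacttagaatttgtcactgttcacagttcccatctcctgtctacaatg
The shared run is 22 bases long and lies from -65 to -44 before the start of Klrb1b and from -68 to -47 before that of Klrb1f. Because the run was taken from the windows of Klrb1b and Klrb1f, they hold it by definition. Searched in either orientation, it occurs in 3 of 32851 promoter windows of the same length (0.00913%). The windows with the run belong to Klrb1b, with 2 start sites, and Klrb1f. The windows of Clec2i and Clec2l, which were also higher in ILC1, do not hold it. Over the aligned bases, the Klrb1b window was 64.9% identical to that of Klrb1f, 65.6% to Klrb1, 65.5% to Klrb1a and 47.1% to Klrb1c. The window of Klrb1b was thus no more like that of Klrb1f than those of Klrb1 and Klrb1a, whose ILC1 values did not lie above the cNK values. The windows of Klrb1a and Klrb1c were 90.8% identical over the aligned bases, with a longest shared run of 41 bases. A shared run is a description of the sequence and no measure of a factor's binding.

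For each gene past the threshold, likeness was measured as the root-mean-square difference of centred log2 CPM over the 6 libraries, among 8229 genes. Nearest to Klrb1b were Ly6e (0.0892), AU020206 (0.111) and Tgtp2 (0.132). Ly6e had 3010, 4008 and 2875 CPM in ILC1 and 814, 1049 and 1062 in cNK, a log2 fold change of 1.76 beside the 1.68 of Klrb1b. Nearest to Clec2i were Slc16a6 (0.103), Hsh2d (0.116) and Bbs9 (0.126). Clec2l was most like Gpr34 (0.266), Krt83 (0.283) and Cd200r1 (0.320), at a larger distance than for the other genes. The cNK values of Clec2l rest on 3, 10 and 11 counts, and only genes with a mean of at least 10 CPM were compared. The part of these limits in the larger distance was not tested. With 6 libraries in 2 groups, likeness mostly reflects the difference between the populations.

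**Figure D5:**
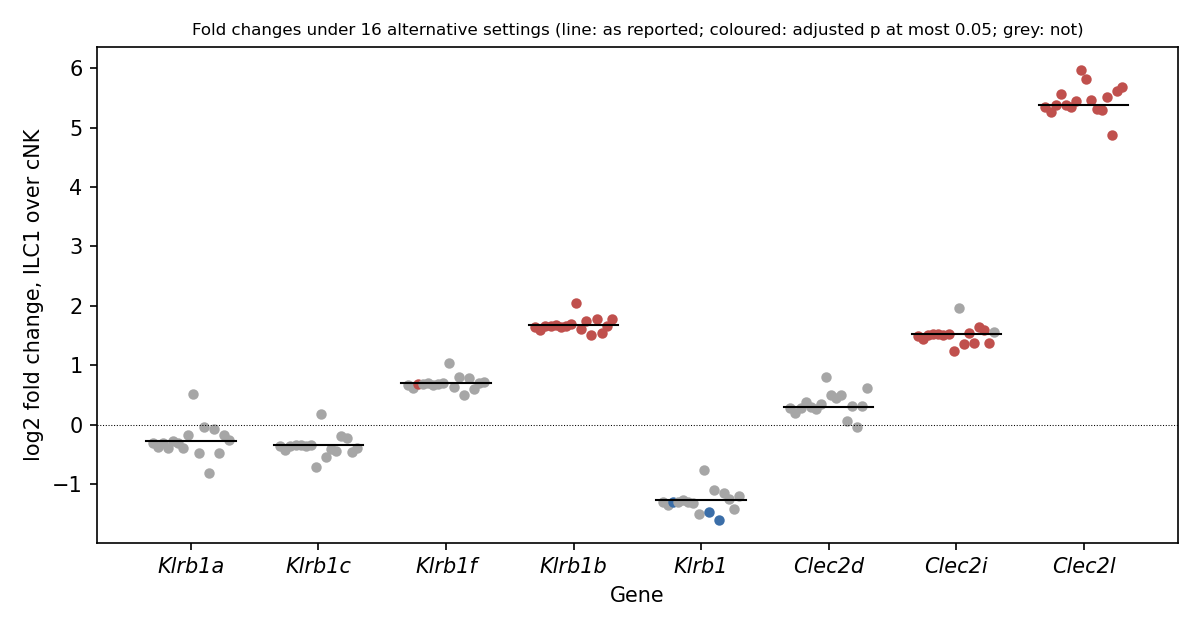
Log2 fold change of ILC1 over cNK of the 8 genes under 16 alternative settings (points), with the reported value as a line and colour for an adjusted p of at most 0.05. Klrb1b (1.51 to 2.05) and Clec2l (4.87 to 5.98) are coloured at every point, and Klrb1a, Klrb1c and Clec2d at none.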

How the data were processed

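RNA was sequenced from 3 ILC1 and 3 cNK pools of mouse kidney. The authors deposited whole-number read counts per gene, not normalized, for each library, and 2 columns of averaged signal per population, which were not used in tests. Per the submitters' processing notes, the tools included STAR 2.6.1, Trimmomatic 0.38, DESeq2 1.30.0 and DESeq, run with R 4.03 on the build GRCm38. How reads were assigned to genes (program, strand, reads with several matches) is not given in the sources used here, so near copies and overlapping genes are uncertain. Of 23841 genes, 23836 matched GENCODE M21, and 1 entry with no gene identifier was left out. The lowest total of a gene over the 6 libraries was 5 counts. Libraries held 22633440 to 28327265 counts.

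Counts were tested with edgeR 4.0.16 in R 4.3.3 (TMM, filterByExpr, robust quasi-likelihood fit on population, two-sided, Benjamini-Hochberg adjustment over all tested genes). The SE was taken from the F statistic. The fit was tested on simulated data. Alternatives were DESeq2 1.42.0, limma-voom (limma 3.58.1), other scaling factors and filters, a block for the pool number, 3 covariates and each library left out. Whether the pools are from different mice is not stated, so the p-values reflect only how the pools vary, which may be technical. The genes and lists were chosen with earlier results of these data known. Genes named were the 8 described, listed partners and relatives, the called neighbour in the cluster, and the 3 most alike genes with a mean of at least 10 CPM.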

Additional observations from a re-analysis of the deposited data

How the results depend on the processing

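Over 16 alternatives, 119 of the 128 fold changes of the 8 genes kept their direction and their side of the threshold. Klrb1a (0.51) and Klrb1c (0.19) changed sign with the macrophage, monocyte and dendritic share as a covariate, and Clec2d (-0.035) without cNK pool 1 (-0.035 to 0.61 over the libraries left out). The macrophage, monocyte and dendritic share did not overlap between the populations, so results with this covariate cannot tell the share from the population. The number of the 8 genes higher in cNK, 0 as reported, was 1 with DESeq2 and 1 with the kidney epithelial share as a covariate, and 0 to 1 when single libraries were left out (1 without ILC1 pool 2). The number higher in ILC1, 3 as reported, was 4 with DESeq2 and 2 both with the macrophage, monocyte and dendritic covariate and without cNK pool 3.

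Of all tested genes 657 were called toward ILC1 and 273 toward cNK. DESeq2 gave 1094 and 641, and the macrophage, monocyte and dendritic covariate gave 172 and 300. Single libraries left out gave 214 to 695 and 93 to 672, with the lowest counts without cNK pool 3 and the highest without ILC1 pool 3. Leaving out ILC1 pool 2 gave 432 genes higher in ILC1, leaving out cNK pool 1 gave 388, and leaving out cNK pool 2 gave 336. Counts higher in cNK were 165 without ILC1 pool 2 and 157 without cNK pool 2. The cause was not tested.

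Whether the pool numbers pair the libraries is not stated in the labels. Deviations of same-numbered pools correlated at 0.53, -0.13 and 0.06 for pools 1, 2 and 3. ILC1 pool 3 correlated best with cNK pool 2 (0.59). Deviations from a mean of 3 libraries depend on each other, so these correlations cannot decide the pairing. A fit with the replicate block gave 1107 and 675 genes, against 657 and 273 without it, and left the calls of the 8 genes at 3 and 0. With 1 count worth up to 0.0442 CPM, depth limits Clec2l in cNK and the Clec2 relatives with few counts.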

Other observations

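The high Klrb1a level of ILC1 pool 2 had a like pattern in some other lectin-like receptor genes, chosen here after their values were seen. It was not particular to such genes. Fcer1g (1225, 1946 and 1316 CPM in ILC1 pools 1, 2 and 3), Tyrobp (667, 1294 and 859) and Nkg7 (1713, 2984 and 1646) were also highest in ILC1 pool 2. Among the ILC1 pools the lectin-like Klrc3 and Klrg1 were highest in pool 1, as was Tbx21. Klrd1, which encodes CD94, the partner chain of NKG2 receptors, stood at 399.6, 790.1 and 445 CPM in ILC1 pools 1, 2 and 3, and at 649, 863 and 794 CPM in cNK. Klre1, a lectin-like receptor of natural killer cells, stood at 228, 509 and 256 CPM in ILC1 and at 676, 958 and 825 CPM in cNK. In both genes ILC1 pool 2 was the highest of the ILC1 libraries, as for Klrb1a. Klrb1b and Klrb1f were also highest in ILC1 pool 2, at 821 and 399 CPM. Neither Klrd1 (edgeR adjusted p 0.443) nor Klre1 (edgeR adjusted p 0.0881) passed edgeR's test between populations. Klre1 had a log2 fold change of -1.31 with each cNK library above each ILC1 library, and its DESeq2 adjusted p was 0.00593.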
